A study of Mus musculus with 8 samples.

Results

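The coenzyme Q synthesis genes described here are 10 of the 55416 genes in the deposited liver table: Pdss1, Coq2, Coq3, Coq4, Coq5, Coq6, Coq7, Coq8a, Coq8b and Coq9. They were taken by name as the enzymes and partner proteins of the pathway. The set was chosen by its Coq8a values, since every hepatocyte Smpd3 knockout library had more Coq8a RNA than every control library. The Coq8a difference, and the differences of the other 9 genes in the same contrast, are given as a description. All 10 genes reached 1 TPM (a length-scaled share of each library's RNA) in at least 4 of the 8 libraries and so entered the fit over 12710 genes.

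Coenzyme Q, or ubiquinone, is the lipid of the inner mitochondrial membrane that carries electrons from complex I, complex II and other dehydrogenases to complex III. Its long isoprenoid tail is built from mevalonate pathway precursors and joined to a ring derived from tyrosine, and the ring is then hydroxylated, methylated and decarboxylated by a complex of COQ proteins on the matrix side of that membrane. In people, inherited loss of COQ8A is a cause of cerebellar ataxia, and loss of COQ8B of kidney disease.

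The HKO group was 4 liver libraries from mice in which Smpd3 was deleted in hepatocytes by Alb-cre, a Cre recombinase driven by the albumin promoter. Smpd3 encodes neutral sphingomyelinase, which splits sphingomyelin into ceramide and phosphocholine. The FLOX group was 4 liver libraries from mice without Alb-cre. Both groups had been on HFMCD, the diet used here to induce steatohepatitis, for 9 weeks, and no library from another diet or time was analysed here. Cre and Smpd3 loss go together in these groups and cannot be told apart. Whether the libraries are from different animals is not in the labels, so p-values measure only the spread between these samples, which may be technical. Smpd3 itself had 1.17, 3.03, 1.27 and 2.06 TPM in HKO libraries, against 8.69, 10.72, 12.54 and 6.38 TPM in FLOX libraries, a log2 difference of -1.89 ± 0.24 (SE, limma, adjusted p = 0.03).

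Coq8a lies on the minus strand of chromosome 1, and RefSeq places starts of its transcripts at sites 2535 bases apart in GRCm38.p6. Both start windows, 250 bases before to 50 after the start, are printed because Coq8a is the gene that set the choice of this pathway. They are written 5′ to 3′ on the gene's strand, and capitals mark matches on either strand to the CCAAT box (CCAAT), the GC box (GGGCGG) and the nuclear receptor element (AGGTCA).
Coq8a upstream start, chr1:180195971-180196270, minus strand: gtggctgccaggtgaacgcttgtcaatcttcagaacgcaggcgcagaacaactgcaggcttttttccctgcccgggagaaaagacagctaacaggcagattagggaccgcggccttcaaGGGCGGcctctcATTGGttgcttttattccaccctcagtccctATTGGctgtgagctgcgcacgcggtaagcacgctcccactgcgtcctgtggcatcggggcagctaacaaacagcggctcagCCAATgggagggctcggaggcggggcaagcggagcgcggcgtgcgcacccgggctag
Coq8a downstream start, chr1:180193436-180193735, minus strand: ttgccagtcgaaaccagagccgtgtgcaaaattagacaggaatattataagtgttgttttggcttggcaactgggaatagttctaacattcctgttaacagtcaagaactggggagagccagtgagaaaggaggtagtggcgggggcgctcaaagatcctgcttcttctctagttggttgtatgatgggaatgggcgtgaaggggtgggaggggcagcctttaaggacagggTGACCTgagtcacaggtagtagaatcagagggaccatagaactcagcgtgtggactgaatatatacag

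The upstream window held 22 CG dinucleotides and 61.7% G or C, and the downstream window 6 CG dinucleotides and 48.7%, against medians of 7 CG dinucleotides and 52.7% over 32851 mouse windows of the same length. Matches in the upstream window were 3 CCAAT boxes, with first bases at -119, -88 and -7 from the start, and 1 GC box at -131. The downstream window had 1 AGGTCA match at -18. CCAAT was present in 37.4% of all windows, GGGCGG in 35.7% and AGGTCA in 16.3%, so these are common letters. Neither Coq8a window had the E-box CACGTG (7.15% of all windows) or the D-box TTATGTAA (0.94%). Of the 10 genes, 8 had a window in the RefSeq table, and Coq5 and Coq8b did not. The table gives 1 value a gene, so the levels from the separate Coq8a starts were not measured.

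COQ8A and COQ8B are paralogous, atypical kinase-like ATPases that support the COQ complex. Coq8a (ENSMUSG00000026489) had 106.35, 114.02, 103.27 and 104.58 TPM in HKO libraries, against 74.54, 78.89, 75.7 and 61.09 TPM in FLOX libraries. The lowest HKO library stood 24.4 TPM above the highest FLOX library, a wider gap than the range within either group, 10.8 TPM in HKO and 17.8 TPM in FLOX. The means were 107 ± 4.81 TPM in HKO and 72.6 ± 7.86 TPM in FLOX (SD, n = 4 each), so the HKO mean was 147.6% of the FLOX mean. On the log2(TPM + 1) scale the difference was 0.56 ± 0.09 (SE of the limma fit). FLOX 4 was the low point of its group, and without it the FLOX mean was 76.4 ± 2.25 TPM (SD, n = 3) and the HKO mean 140.2% of it.

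Coq8b (ENSMUSG00000003762), the paralog, had 17.65, 18.99, 17.29 and 14.45 TPM in HKO libraries, against 20.35, 23.29, 17.56 and 16.73 TPM in FLOX libraries. The groups overlapped, and the highest value belonged to FLOX 2. The means were 17.1 ± 1.91 TPM in HKO and 19.5 ± 2.97 TPM in FLOX (SD, n = 4 each), a log2 difference of -0.17 ± 0.13 (SE). The ratio of Coq8a TPM to Coq8b TPM was 6.025, 6.004, 5.973 and 7.237 in HKO libraries, against 3.66, 3.39, 4.31 and 3.65 in FLOX libraries. All HKO ratios lay above all FLOX ratios, which follows in large part from the Coq8a values that guided the choice of genes. The summed TPM of both paralogs was 124 ± 6.26 in HKO and 92.0 ± 10.2 in FLOX (SD, n = 4 each).

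**Figure D1:**
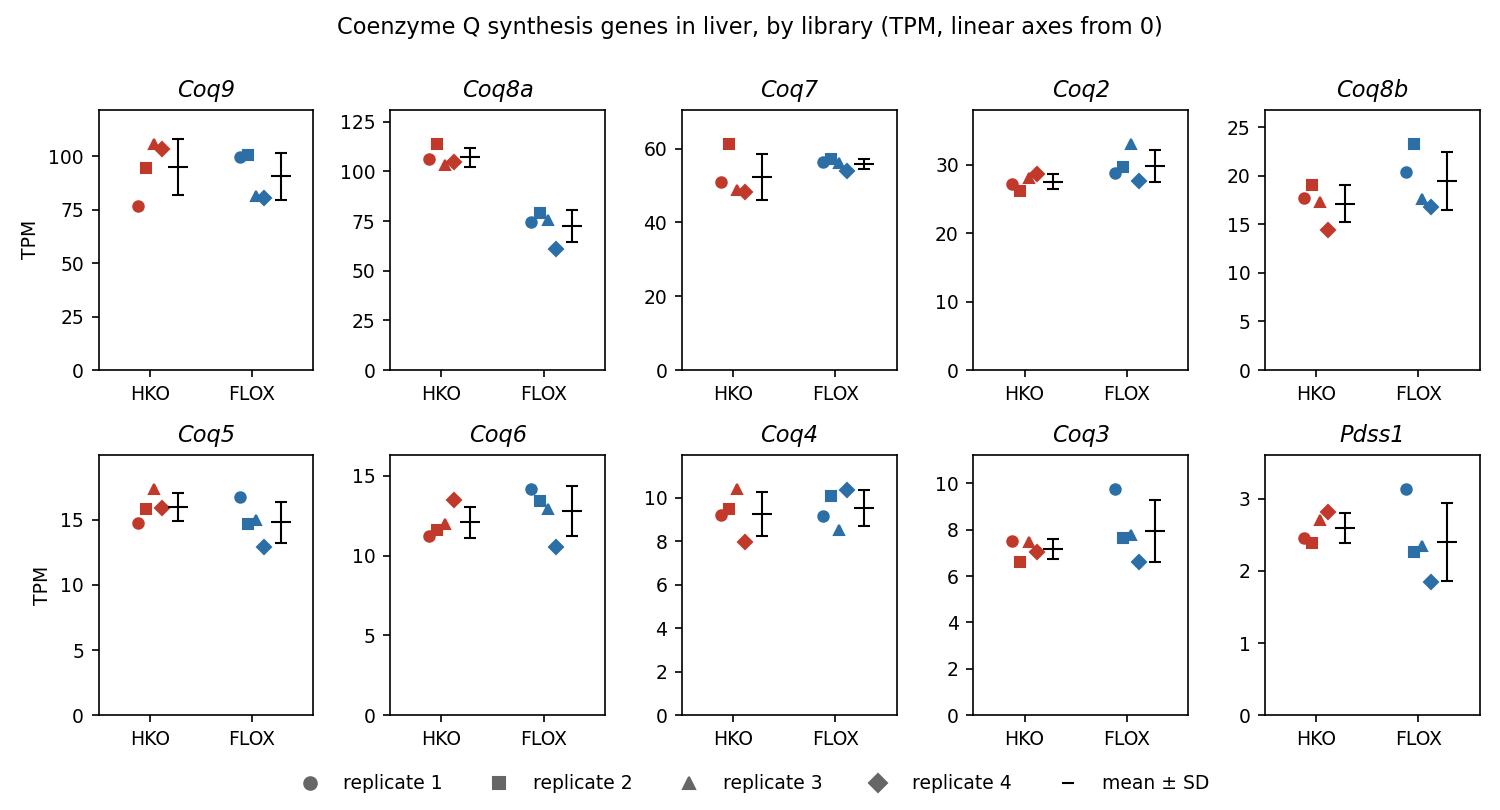
TPM of each of the 10 coenzyme Q synthesis genes in every library, with HKO left of FLOX in each panel, linear axes from 0, and the mean ± SD (n = 4) beside the points. In the Coq8a panel all 4 HKO points, 103.27 to 114.02 TPM, lie above all 4 FLOX points, 61.09 to 78.89 TPM, whereas the groups overlap in the other 9 panels.

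None of the other 9 genes had separated groups. The limma call at an adjusted p of 0.05 was made for 0 of the 10 genes, where 6 genes (0.0472% of the 12710 tested) were called higher and 7 (0.0551%) lower, and 1019 genes had an unadjusted p below 0.05. Of these 708 were higher and 311 lower, but the split was 596 higher and 593 lower under median-of-ratios scaling and 482 higher and 537 lower without FLOX 4. Groups that did not overlap were found for 1 of the 10, Coq8a, where 418 genes (3.29%) had non-overlapping groups with HKO higher and 185 (1.46%) with HKO lower. Since Coq8a was chosen for this, its count is not a result about the pathway. The median log2 difference was -0.06 over the 10 genes and -0.07 over the 9 without Coq8a, beside 0.05 over all genes tested (-0.006 without FLOX 4). The 95% intervals of the 9 differences all included 0, with bounds reaching from -0.47 (Coq8b) to 0.42 (Pdss1), which does not show that any of them was unchanged.

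Tail synthesis and attachment come first in the pathway. Pdss1, which with Pdss2 forms the polyprenyl diphosphate synthase that builds the tail, had 2.46, 2.39, 2.71 and 2.82 TPM in HKO libraries, against 3.14, 2.26, 2.35 and 1.85 TPM in FLOX libraries. FLOX 1 and FLOX 4 held the highest and lowest of these 8 values, with every HKO library between them. Its means were 2.60 ± 0.20 TPM in HKO and 2.40 ± 0.54 TPM in FLOX (SD, n = 4 each), a log2 difference of 0.09 ± 0.15 (SE). Coq2, the prenyltransferase that joins tail and ring, had 27.25, 26.12, 28.08 and 28.63 TPM in HKO libraries, against 28.86, 29.73, 33.1 and 27.64 TPM in FLOX libraries. Only FLOX 4 fell within the HKO range, and the log2 difference was -0.11 ± 0.09 (SE).

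The ring is hydroxylated by COQ6, a flavin monooxygenase, and by COQ7, which acts on demethoxyubiquinone late in the pathway. Coq6 had 11.21, 11.62, 11.99 and 13.46 TPM in HKO libraries, against 14.18, 13.42, 12.94 and 10.56 TPM in FLOX libraries. The lowest and the highest value were both FLOX libraries, and the log2 difference was -0.07 ± 0.12 (SE). Coq7 had 50.92, 61.33, 48.66 and 48.1 TPM in HKO libraries, against 56.44, 57.05, 56.12 and 53.86 TPM in FLOX libraries. HKO 2 was above every FLOX library and the other 3 HKO libraries were below them all, so the spread was wider in HKO (coefficient of variation 11.8%) than in FLOX (2.49%), and the log2 difference was -0.10 ± 0.09 (SE).

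The methyl groups are added by COQ3, an O-methyltransferase, and COQ5, a C-methyltransferase. Coq3 had 7.5, 6.59, 7.46 and 7.05 TPM in HKO libraries, against 9.76, 7.66, 7.77 and 6.59 TPM in FLOX libraries. FLOX 1 stood alone at the top and FLOX 4 equalled the lowest HKO library, and the log2 difference was -0.12 ± 0.13 (SE). Coq5 had 14.75, 15.85, 17.38 and 15.9 TPM in HKO libraries, against 16.72, 14.65, 14.98 and 12.91 TPM in FLOX libraries. HKO 3 was the highest library and FLOX 4 the lowest, with the groups overlapping between them and a log2 difference of 0.10 ± 0.11 (SE).

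COQ4 is a core component of the COQ complex, and COQ9 is a lipid-binding protein that works with COQ7. Coq4 had 9.2, 9.48, 10.4 and 7.94 TPM in HKO libraries, against 9.16, 10.09, 8.5 and 10.33 TPM in FLOX libraries. Both groups spanned nearly the same range, with a log2 difference of -0.04 ± 0.12 (SE). Coq9 had 76.91, 94.43, 105.9 and 103.2 TPM in HKO libraries, against 99.87, 100.37, 81.52 and 80.56 TPM in FLOX libraries. HKO 1 was the lowest library and HKO 3 the highest, and the log2 difference was 0.07 ± 0.12 (SE).

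**Figure D2:**
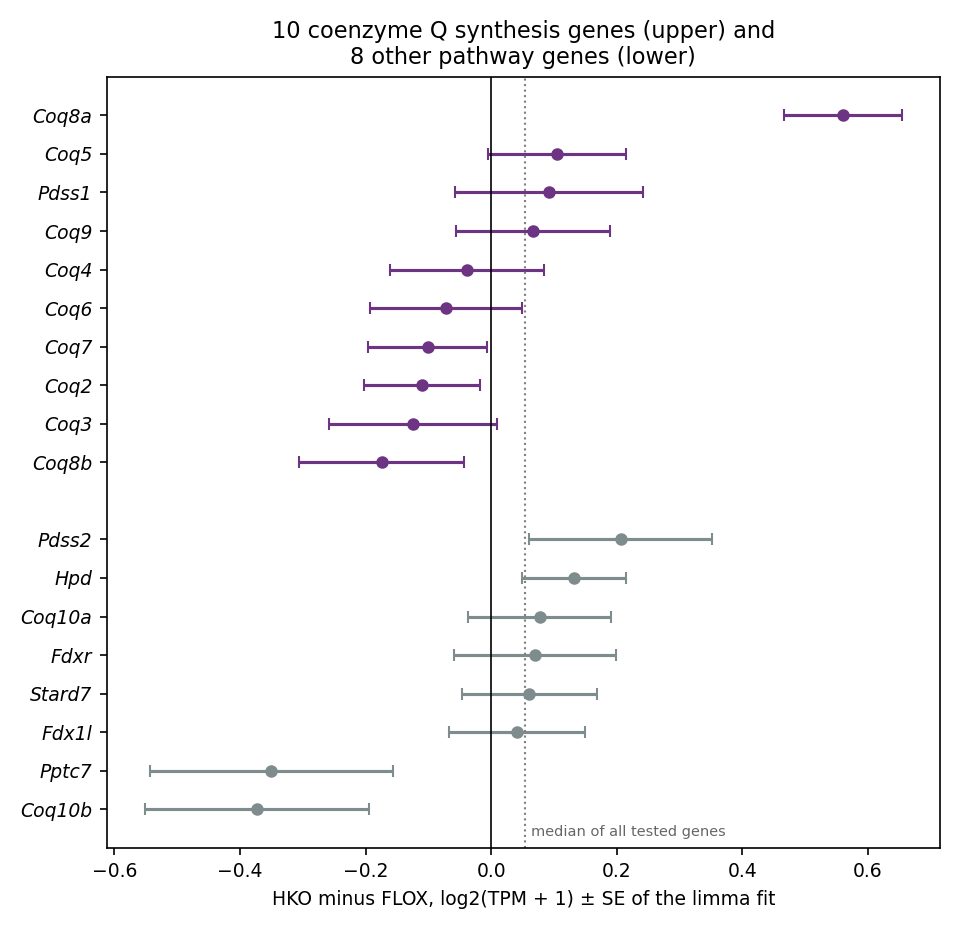
Difference of HKO minus FLOX on the log2(TPM + 1) scale with the SE of the limma fit, for the 10 synthesis genes (upper block) and 8 tested genes of coenzyme Q precursor supply, binding, transport and regulation (lower block). Coq8a lies at 0.56, and the other 9 synthesis genes lie between -0.17 for Coq8b and 0.10 for Coq5, near the median of all tested genes at 0.05 (dotted line).

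TPM is scaled per length, so levels can be set side by side between genes. Over all 8 libraries the mean level ran from 92.8 TPM for Coq9, 89.8 TPM for Coq8a and 54.1 TPM for Coq7 through 28.7 TPM for Coq2, 18.3 TPM for Coq8b, 15.4 TPM for Coq5, 12.4 TPM for Coq6 and 9.39 TPM for Coq4 to 7.55 TPM for Coq3 and 2.50 TPM for Pdss1, a 37.2-fold range. Most neighbours in this order kept their places in 7 or 8 of the 8 libraries. Coq9 was above Coq8a in 5 libraries, all 4 of FLOX and 1 of HKO, and Coq8b was above Coq5 in 6, all 4 of FLOX and 2 of HKO, so neither pair has a fixed order. Coq9 and Coq8a stood above 90.7% and 90.4% of the tested genes in mean level, and Pdss1 above 16.7%.

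Coq8a made up 31.0 ± 1.56% of the summed TPM of the 10 genes in HKO and 22.9 ± 1.19% in FLOX (SD, n = 4 each). The other 9 genes summed to 239 ± 14.5 TPM in HKO (217.85 to 249.87) and 243 ± 18.5 TPM in FLOX (221.03 to 258.52). Their sums overlapped between the groups. The sum of all 10 was 346 ± 15.8 TPM in HKO and 316 ± 25.3 TPM in FLOX (SD, n = 4 each).

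**Figure D3:**
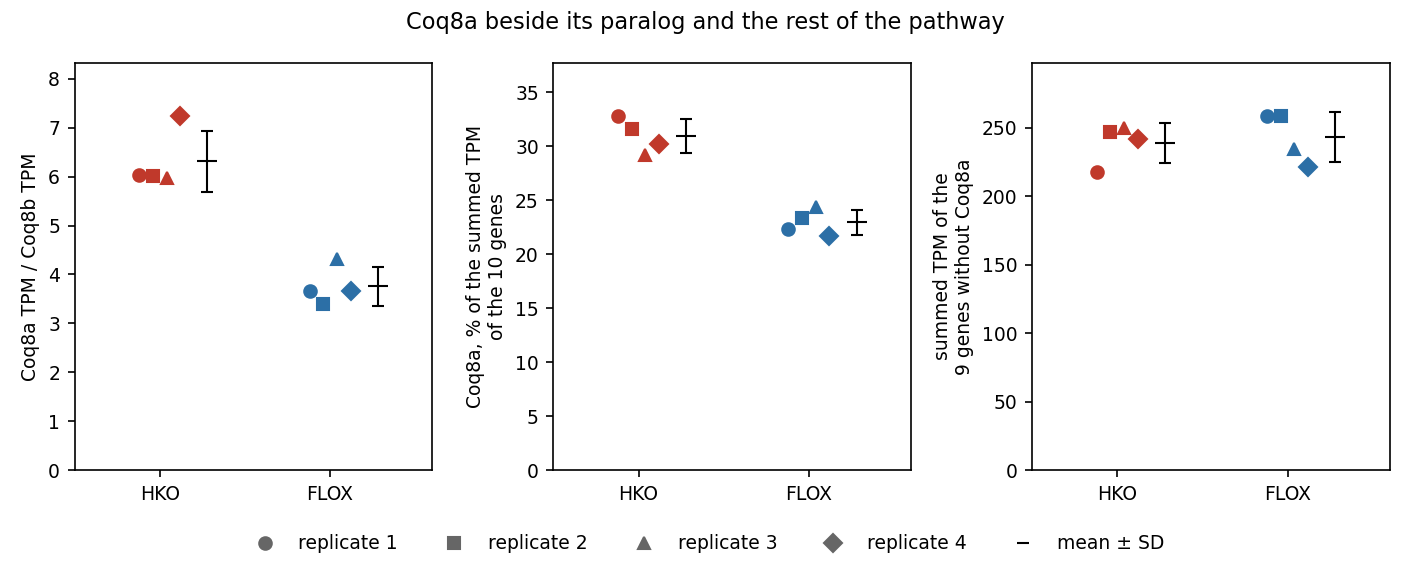
Per-library ratio of Coq8a TPM to Coq8b TPM, Coq8a as a percentage of the summed TPM of the 10 genes, and the summed TPM of the 9 genes without Coq8a, with HKO left of FLOX and the mean ± SD (n = 4). The ratio is 5.97 to 7.24 in HKO and 3.39 to 4.31 in FLOX, while the sums of the 9 other genes overlap.

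Within-group spread differed among the genes. The pooled SD on the log2(TPM + 1) scale was smallest for Coq2 (0.09) and largest for Coq9 (0.19). Of tested genes of similar level, 5.0% varied less than Coq2, 35.9% less than Coq8a and 69.5% less than Coq9. Among FLOX libraries, FLOX 4 had the lowest value for 9 of the 10 genes and the highest for Coq4. Averaged over the 10 genes, FLOX 4 lay 0.15 below its group mean on the log2 scale (-0.153) and FLOX 1 lay 0.11 above it, and the HKO libraries lay between -0.05 and 0.04.

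FLOX 4 also stood apart over the whole table, with 12115 genes at 1 TPM or more (12474 to 12890 in the other 7 libraries), 33.8% of its TPM in its 20 most abundant genes (28.6% to 31.4% in the others) and 8.92% in mitochondrially encoded genes (6.72% to 8.04% in the others). The sums of the endothelial, macrophage, stellate and lymphocyte lists were lowest there too. Those of the cholangiocyte list and of the erythroid and granulocyte list were not. Spp1 stands in both the cholangiocyte and the macrophage list and made up most of the cholangiocyte sum (235.1 of 251.26 TPM in FLOX 4). For sinusoidal endothelial markers the sum was 125.02 to 156.82 TPM in HKO libraries, 99.04 TPM in FLOX 4 and 186.63 to 213.74 TPM in the other FLOX libraries. For stellate cell and fibroblast markers it was 560.21 to 796.53 TPM in HKO, 333.91 TPM in FLOX 4 and 677.16 to 703.23 TPM in the other FLOX libraries. Hepatocyte markers summed to 85330.68 to 94605.66 TPM in HKO and 90852.18 to 106673.25 TPM in FLOX, with FLOX 4 the highest. No marker of the 8 cell type lists was called between the groups in this fit, and the summed levels of all 8 lists overlapped. In the whole fit 6 of 12710 genes (0.0472%) were called higher and 7 (0.0551%) lower. With so few calls, their absence from short lists does not show equal levels. Of 12 endothelial markers 11 had log2 differences below 0 and 1 above, with a median of -0.19. Other lists leaned as well, beside a median of 0.05 over all tested genes. Above 0 were 10 of 12 stellate and fibroblast markers (median 0.23) and 6 of 6 tested cholangiocyte markers (0.26). So were 8 of 9 tested lymphocyte markers (0.22) and 5 of 7 tested erythroid and granulocyte markers (0.42). Of 15 hepatocyte markers 4 were above 0 and 11 below (-0.07). The endothelial sums overlapped only through FLOX 4. Some single markers had separated groups and are named after their values were seen. Marco, a scavenger receptor of Kupffer cells, averaged 9.62 ± 1.73 TPM in HKO and 17.9 ± 1.52 TPM in FLOX (SD, n = 4 each). It was called lower in 4 of the alternative fits. Of the 13 tested markers of its list, 9 had log2 differences above 0 and 4 below, with a median of 0.02. Timd4, of the same list but too low to test, also had separated groups, at 0.30 to 0.37 TPM in HKO and 0.51 to 0.89 TPM in FLOX. The lymphocyte marker Gzma was higher in every HKO library than in every FLOX library, at 2.62 ± 1.88 TPM in HKO and 0.83 ± 0.33 TPM in FLOX (SD, n = 4 each). The hepatocyte genes Apoa1, Serpina1a and Arg1, 3 of 15 in their list, had less TPM in every HKO library than in every FLOX library. Their log2 differences were -0.41, -0.13 and -0.41. Over all 12710 tested genes, 1.46% had separated groups with HKO lower and 3.29% with HKO higher. In bulk tissue, fewer cells of a type and less RNA per cell cannot be told apart. The part of these library features in the Coq8a difference was not tested, and that difference was 0.48 on the log2 scale without FLOX 4.

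**Figure D4:**
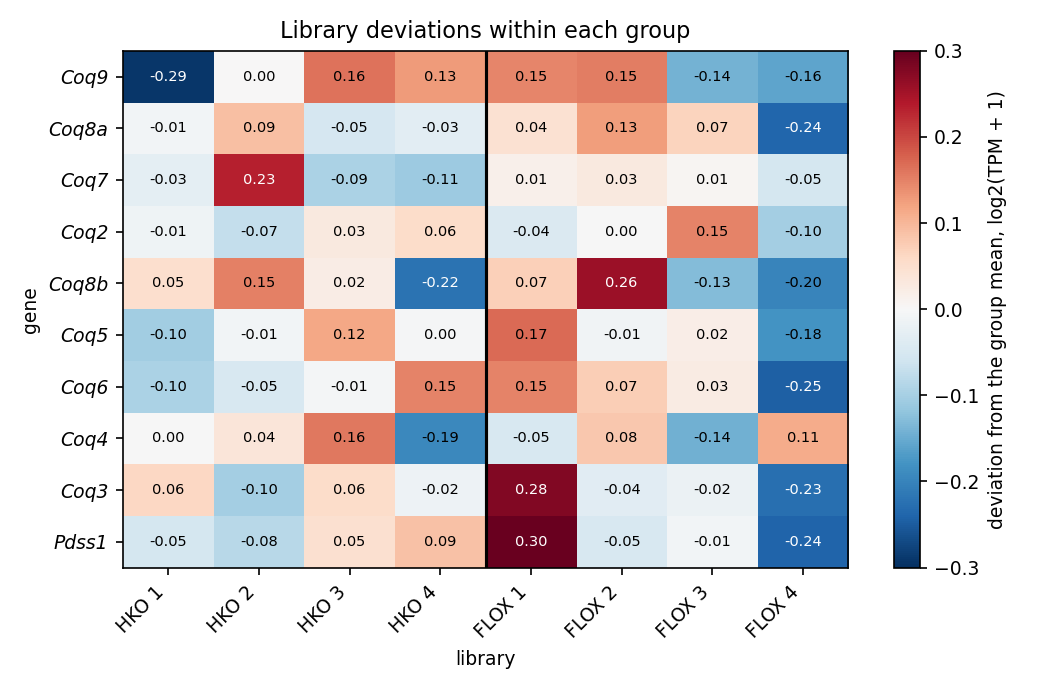
Deviation of each library from its own group mean on the log2(TPM + 1) scale, for the 10 genes in order of mean level, HKO libraries left of the line and FLOX libraries right. FLOX 4 is below its group mean for 9 genes and above it for Coq4, and the widest single deviations are those of Pdss1 in FLOX 1 (0.30) and Coq9 in HKO 1 (-0.29).

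After each group mean was removed, 33 of the 45 pairs among the 10 genes had a Pearson r above 0 over the 8 libraries, with a median of 0.30. The pair of highest r was Coq3 with Pdss1 (0.92), followed by Coq5 with Pdss1 (0.87), and the lowest was Coq2 with Coq4 (-0.59). Coq8a had its highest r with Coq8b (0.69) and Coq6 (0.65) and its only negative r with Coq4 (-0.27). Without FLOX 4, a choice made after seeing these values, 21 of the 45 pairs were above 0 with a median of -0.10, so the shared direction among the genes rested on that library. The points share libraries and TPM scaling, and the values are descriptions.

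By the same measure, the genes whose pattern was most like Coq8a, out of 7968 compared over 8 libraries, were Tnip1 (r = 0.99), Cbx3 (0.99), Arl8a (0.98), Ptgr1 (0.98) and Tmem35b (0.97). Tnip1 had 20.78, 24.39, 19.75 and 20.88 TPM in HKO libraries, against 20.44, 22.21, 21.28 and 15.07 TPM in FLOX libraries. Its dip in FLOX 4 and rise in HKO 2 match those of Coq8a, but its groups overlap. With the group difference kept in, the r of these genes with Coq8a was between 0.31 for Cbx3 and 0.68 for Arl8a. Without the 2 libraries farthest from the median of Coq8a (FLOX 4 and FLOX 2), r was between 0.86 and 0.98. There the group means removed still included those 2 libraries, and the genes had been picked for their high r over all 8. The 3 genes most like Coq9 were Sepsecs (0.99), Insig1 (0.99) and Snx27 (0.99). The genes compared were those tested with a mean of at least 5 TPM and a symbol that is not a clone, predicted or identifier name. Sepsecs, which makes selenocysteinyl-tRNA, had 6.64, 8.47, 9.59 and 9.12 TPM in HKO libraries, against 8.89, 8.54, 6.98 and 6.95 TPM in FLOX libraries. It shared with Coq9 the low values of HKO 1, FLOX 3 and FLOX 4.

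Around the synthesis genes, a list of 10 further coenzyme Q genes had 9 tested, none called by limma in either direction, and a median log2 difference of 0.06 against 0.05 for all genes. For Pdss2, the other subunit of the tail synthase, the means were 6.33 ± 0.49 TPM in HKO and 5.41 ± 1.10 TPM in FLOX (SD, n = 4 each), and the log2 difference was 0.21 ± 0.15 (SE). The ratio of Pdss2 TPM to Pdss1 TPM was 2.45 ± 0.22 in HKO and 2.26 ± 0.08 in FLOX. Hpd, which handles 4-hydroxyphenylpyruvate in tyrosine breakdown, averaged 1117 ± 74.0 TPM in HKO and 1021 ± 94.6 TPM in FLOX, with a log2 difference of 0.13 ± 0.08 (SE). Hpdl, a relative of Hpd that supplies a ring precursor in human cells, was too low to test, with means of 0.068 TPM in HKO and 0.23 TPM in FLOX. The electron donors for ring hydroxylation, Fdxr and Fdx1l (also called Fdx2), differed by 0.07 ± 0.13 and 0.04 ± 0.11 on the log2 scale (SE).

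Coq10a and Coq10b encode START-domain proteins that bind coenzyme Q. Coq10b had 15.2, 16.64, 15.73 and 15.76 TPM in HKO libraries, against 17.12, 29.94, 15.69 and 23.1 TPM in FLOX libraries. HKO libraries lay close together, FLOX libraries were spread, and FLOX 3 fell within the HKO range. Its log2 difference was -0.37 ± 0.18 (SE), while that of Coq10a was 0.08 ± 0.11 (SE), and neither gene was called. The ratio of Coq10b TPM to Coq10a TPM was 0.80 ± 0.11 in HKO and 1.12 ± 0.28 in FLOX (SD, n = 4 each). Pptc7, a mitochondrial phosphatase needed for normal coenzyme Q levels in mice, had 2.59, 3.62, 4.17 and 4.6 TPM in HKO libraries, against 5.26, 6.84, 3.84 and 4.34 TPM in FLOX libraries, with a log2 difference of -0.35 ± 0.19 (SE). Stard7, which helps distribute coenzyme Q from mitochondria in human cells, differed by 0.06 ± 0.11 on the log2 scale (SE).

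Upstream, all 10 genes of a mevalonate and prenyl precursor list were tested and none was called. The list includes Fdft1, of the squalene branch, with a log2 difference of 0.30 ± 0.15 (SE). All 10 log2 differences were above 0, from 0.00 to 0.30, with a median of 0.13. The median over all genes tested was 0.05, and -0.006 without FLOX 4. Fdps, farnesyl diphosphate synthase, averaged 184 ± 31.2 TPM in HKO and 150 ± 36.1 TPM in FLOX, and Hmgcs1, which makes HMG-CoA, 128 ± 22.2 TPM in HKO and 115 ± 27.2 TPM in FLOX (SD, n = 4 each). The summed TPM of the list overlapped between the groups, 403.99 to 580.99 in HKO and 375.07 to 596.03 in FLOX. HKO 1 was at 403.99 and the other HKO libraries at 560.77 to 580.99. FLOX 1 was at 596.03 and FLOX 2 at 498.66, against 375.62 in FLOX 3 and 375.07 in FLOX 4.

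Downstream, none of 15 genes that feed electrons to coenzyme Q outside complex I was called, with 9 log2 differences above 0, 6 below and a median of 0.01. Etfb and Etfa, the subunits of the flavoprotein that feeds electrons from fatty acid oxidation into the coenzyme Q pool, averaged 661 ± 29.1 and 340 ± 16.3 TPM in HKO, against 678 ± 31.0 and 313 ± 19.2 TPM in FLOX. Of 16 mitochondrial content markers none was called, with 13 above 0, 3 below and a median of 0.06, close to that of all genes. Only Ndufa9, named after its values were seen, had separated groups, at 97.3 to 106.55 TPM in HKO and 87.71 to 94.34 TPM in FLOX. Among all tested genes 3.29% were separated with HKO higher. Atp5b, an ATP synthase subunit, averaged 1420 ± 263 TPM in HKO and 1290 ± 202 TPM in FLOX, and Cox4i1, a cytochrome oxidase subunit, 1099 ± 38.0 TPM in HKO and 1050 ± 40.5 TPM in FLOX. Among 13 biogenesis regulators 10 were tested and none was called, with 3 above 0, 7 below and a median of -0.07. The deacetylase gene Sirt3 averaged 75.8 ± 5.37 TPM in HKO and 74.1 ± 6.26 TPM in FLOX, and the nuclear receptor gene Ppara 29.6 ± 5.07 TPM in HKO and 34.7 ± 5.60 TPM in FLOX. Tfam stands in both of these mitochondrial lists.

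COQ8A was first described in human cells as a p53-inducible gene. None of 15 other p53 targets was called, with 6 log2 differences above 0, 9 below and a median of -0.05. Over all 12710 genes, 0.0472% were called higher and 0.0551% lower. Bax, which promotes apoptosis, averaged 75.7 ± 7.34 TPM in HKO and 71.7 ± 5.56 TPM in FLOX, and Cdkn1a, a cell cycle inhibitor, 57.0 ± 14.4 TPM in HKO and 49.0 ± 10.2 TPM in FLOX (SD, n = 4 each). Gdf15, a secreted stress hormone, was the only p53 target with separated groups and is named after its values were seen. It averaged 40.2 ± 4.08 TPM in HKO and 30.0 ± 3.44 TPM in FLOX, without a limma call. Its log2 difference was 0.41 (95% interval 0.16 to 0.66). Of all tested genes 3.29% had separated groups with HKO higher. Trp53inp1 and Bbc3, also named after their values were seen, differed by 0.69 (-0.10 to 1.48) and 0.67 (0.09 to 1.26). The part of p53 in the Coq8a difference was not tested. The circadian list was included because earlier results of these data showed it to differ, and its count is not independent evidence. Of its 20 genes 19 were tested, 1 was called higher and 0 lower, and the median log2 difference was -0.40. Arntl, the core clock activator also called Bmal1, averaged 14.3 ± 3.55 TPM in HKO and 4.77 ± 1.45 TPM in FLOX, a log2 difference of 1.41 ± 0.21 (SE, limma, adjusted p = 0.049). That call was lost in 7 of the 8 fits that left out a library. Nr1d1, which encodes the repressor REV-ERB alpha, averaged 20.2 ± 14.0 TPM in HKO and 49.3 ± 13.9 TPM in FLOX, and Bhlhe40, which encodes the repressor DEC1, 32.3 ± 10.5 TPM in HKO and 52.5 ± 2.71 TPM in FLOX, neither past the threshold. The labels give no time of day for the livers, and the part of clock phase in the Coq8a difference was not tested.

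**Figure D5:**
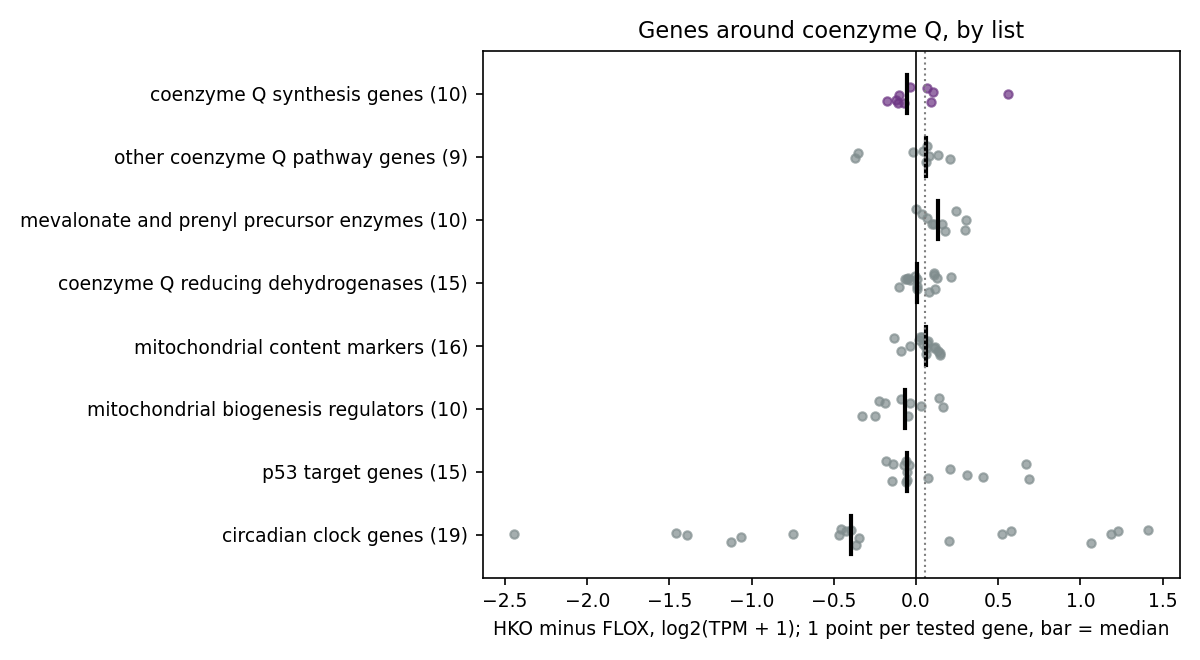
Differences of HKO minus FLOX on the log2(TPM + 1) scale for the coenzyme Q synthesis genes and 7 lists around them, with 1 point per tested gene, a bar at each list's median and a dotted line at the median of all tested genes (0.05). All 10 genes of the mevalonate and prenyl precursor list lie above 0, and the clock genes spread from -2.44 to 1.41.

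In the GENCODE M21 annotation of GRCm38, Coq8a has 17 transcripts, 12 of them coding, and 366 of its exon bases (6.91%) overlap Cdc42bpa on the opposite strand. Cdc42bpa had 6.78 to 9.27 TPM in HKO libraries and 6.23 to 7.82 TPM in FLOX libraries, far below Coq8a. Coq4 overlaps Trub2 on the opposite strand over 921 exon bases (27.1%), and Trub2 had 3.79 to 8.82 TPM in HKO libraries and 6.11 to 8.22 TPM in FLOX libraries, near the level of Coq4. Pdss1 shares 194 exon bases (4.57%) with Abi1 on the opposite strand, and Abi1 stood far above it, at 37.48 to 47.88 TPM in HKO libraries and 35.2 to 59.29 TPM in FLOX libraries. Coq8b shares 153 exon bases (2.74%) with Gm44641 on the same strand, which had 3.08 to 8.99 TPM in HKO libraries and 4.87 to 13.21 TPM in FLOX libraries. No source used here states the strand setting of the authors' counting, so the values of Coq4 and Pdss1 are uncertain, and those of Coq8b are uncertain whatever the setting. Coq2, Coq3, Coq5 and Coq7 had no such overlap. The 10 genes lie on chromosomes 1, 2, 4, 5, 7, 8 and 12, with Coq4 and Pdss1 on chromosome 2, Coq2 and Coq5 on 5, and Coq7 and Coq8b on 7.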

How the data were processed

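Per the labels, liver total RNA was sequenced from stranded libraries. The deposited values are TPM (transcripts per length and library total), 1 column for each of 8 libraries. RSEM 1.3.3 and GRCh38.p13 are named in the submitters' processing notes, and that build is human although the identifiers are mouse. For aligner, annotation and strandedness, the settings were not given in the sources used here. TPM is a share of each library, so abundant transcripts move all other values. Depth is unknown, and intervals from counts cannot be given.

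Symbols were matched for 52083 identifiers. Values were analysed as log2(TPM + 1). Such differences understate changes of low genes. The 12710 genes that reached 1 TPM in 4 or more libraries were fitted in limma 3.58.1 under R 4.3.3 (lmFit, eBayes with trend), HKO minus FLOX, without covariates, and Benjamini-Hochberg adjusted at 0.05. The fit was tested on simulated data. Members, lists, promoter motifs and tests were chosen with earlier results of these data known. Genes named were the 10 members, Smpd3, the other coenzyme Q genes listed except 1 that is not reported here, the 2 most abundant and any called gene of each other list described, and the genes most like Coq8a (5) and Coq9 (3). The marker lists are described by their sums and calls and, for some, the signs of their log2 differences. A few further genes are named after their values were seen. Promoters came from RefSeq (GRCm38.p6), with both strands searched.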

Additional observations from a re-analysis of the deposited data

Results flagged for a closer look

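Of 114 groups of 4 libraries examined, 10 had a highest or lowest library whose gap to the next took up more of the group's range than Dixon's critical value allows, and chance flags about 1 in 20 groups. No coenzyme Q synthesis gene reached that value, which is high for groups of 4, although HKO 2 for Coq7 and FLOX 4 for Coq8a, among others, lay outside the range of the other 3 libraries of their groups by more than the width of that range. The coenzyme Q and mitochondrial genes that reached it were Coq10a in FLOX 3 (16.2 TPM), Fdx1l in HKO 2 (42.3 TPM), Etfb in FLOX 2 (632 TPM), Cox4i1 in FLOX 2 (989.65 TPM) and Sirt3 in FLOX 2 (83.4 TPM). The others were Arntl in HKO 4 (19.6 TPM), the fibroblast gene Dcn in FLOX 4 (134 TPM), Tmem35b in HKO 2 (10.7 TPM), and the muscle genes Acta1 (12.8 TPM) and Tnnt3 (4.51 TPM) in FLOX 1. The summed muscle markers were 2.50 to 3.51 TPM in HKO libraries, 23.95 TPM in FLOX 1 and 2.40 to 3.08 TPM in the other FLOX libraries, with Myh6 at 0 in every library.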

How the results depend on the processing

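The Coq8a log2 difference ranged from 0.48 without FLOX 4 to 0.60 without FLOX 2 over 18 alternative fits. The choice of a gene with separated groups fixed its sign where a library was left out, and its limma calls in 3 alternatives (rescaling without mitochondrial and abundant genes, quantile normalization, library weights) rest on the values that chose it. The other 9 genes moved by less than their spread in every alternative that gave a value, with a change of sign for Coq4 (0.03 without HKO 4) and Coq9 (-0.002 under quantile normalization). The median of all genes was 0.05, and 0.00 under median-of-ratios scaling. Genes called higher (6) numbered 3 with a pseudocount of 5, 10 after rescaling, 10 under quantile normalization and 10 with library weights. Genes called lower (7) numbered 4 with a pseudocount of 0.1 and 3 with one of 5. With no filter, limma called 0 of 26719 genes in either direction, and 1539 had an unadjusted p below 0.05. Leaving out 1 library gave 0 to 9 higher and 0 to 7 lower. There were 0 higher without HKO 2, HKO 3, FLOX 1 or FLOX 4, 0 lower without HKO 3 or FLOX 1, and 780 to 1396 genes with an unadjusted p below 0.05. The Smpd3 call was lost without HKO 1, HKO 3, HKO 4, FLOX 1 or FLOX 2, while its log2 difference stayed between -2.34 and -1.07 over all 18 alternatives. Marco was called lower with a mean of at least 5 TPM, after rescaling, with robust eBayes and with library weights. Replicate numbers did not pair the samples (same-number r -0.15, 0.03, -0.15 and -0.20). With a replicate block limma called 0 higher and 0 lower, with 743 genes at an unadjusted p below 0.05, and Coq8a differed by 0.56 ± 0.11 (SE). Only TPM is available, so no limit from depth can be given.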
